A study of Mus musculus with 22 samples.

Results

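The Roundabout receptors Robo1, Robo2 and Robo3, their Slit ligands Slit1, Slit2 and Slit3, and the netrin receptor Dcc steer axons across or away from the ventral midline of the developing spinal cord. These 7 genes, of 21363 in the deposited table, were followed in nuclear RNA of the adult and juvenile mouse dorsal horn. They were selected on the measured contrast of GFP+ over GFP- nuclei across all ages, which was known when the family was named. Their GFP+ and GFP- values are therefore given as a description with no test, and tests are reserved for age, which the choice did not use.

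The tested nuclei were GFP+ nuclei at P7, P21 and P80 (postnatal days), described in the labels as being of the pDyn lineage, where pDyn is the gene Pdyn for the opioid peptide precursor prodynorphin. They were set against GFP- nuclei at the same ages, which the labels call unidentified non-pDyn nuclei. All came from pDyn-Sun1-GFP mice, in which a fusion of the nuclear envelope protein Sun1 with GFP is driven by the pDyn promoter, so the GFP- nuclei carry the same transgene. Flow sorting of lumbar dorsal horn of both sides gave 5000 GFP+ and 5000 GFP- nuclei from each of 11 animals, of which 4 were P7, 3 were P21 and 4 were P80, and so 22 libraries. The labels do not say whether GFP marks present promoter use only or also past use. The GFP- sample is a mixture of neurons and other cells. The library columns could be tied to an age and a population, but not to an animal or a sex.

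In the embryo, Slit proteins secreted by the floor plate repel growth cones that carry Robo1 or Robo2, and netrin attracts growth cones that carry Dcc. Robo3 is the divergent receptor of commissural axons before they cross: mammalian Robo3 does not bind Slits with high affinity, interacts with Dcc and binds the secreted protein NELL2. Robo3 has splice forms with different roles at the midline, which counts per gene cannot tell apart. After development these proteins are also known from synapses and cell positioning.

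Sequences are shown for the Robo3 and Robo1 promoters, because these receptors lay at opposite ends of the Robo family's population difference, and for miR-218-5p, whose hairpins lie in Slit2 and Slit3. The promoters are the 250 bases before the RefSeq start on build GRCm38.p6, printed 5′ to 3′ in the direction of transcription, for Robo3 at chr9:37433176-37433425 on the minus strand and for Robo1 at chr16:72662899-72663148 on the plus strand. The bases just after the start were found in 1 of 6 annotated Robo3 transcripts and in 1 of 9 of Robo1 (GENCODE vM21). Each window thus stands for 1 annotated start, and the start used in these nuclei is not known. Capitals mark CANNTG, the core letters of an E-box, and TAAT, the core letters read by many homeodomain proteins, each searched on both strands, with overlapping matches allowed.
Robo3: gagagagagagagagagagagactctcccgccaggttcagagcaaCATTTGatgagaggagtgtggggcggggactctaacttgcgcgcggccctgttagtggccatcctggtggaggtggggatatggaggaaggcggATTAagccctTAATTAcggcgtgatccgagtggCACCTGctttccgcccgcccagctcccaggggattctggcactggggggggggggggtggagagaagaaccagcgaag
Robo1: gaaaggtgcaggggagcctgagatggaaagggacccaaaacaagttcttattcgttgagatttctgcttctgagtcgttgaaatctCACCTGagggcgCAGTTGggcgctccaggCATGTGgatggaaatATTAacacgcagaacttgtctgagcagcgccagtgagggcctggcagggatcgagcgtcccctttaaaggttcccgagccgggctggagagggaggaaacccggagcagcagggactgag
The Robo3 window held 2 CANNTG and 3 TAAT matches, and the Robo1 window held 3 and 1. Of 32851 RefSeq promoter windows of the same length, 66.2% held CANNTG and 54.9% held TAAT, so either match is common and is a description of these letters only. GC content was 61.2% in the Robo3 window and 56% in the Robo1 window, against a median of 52.4% over all windows.

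The mature miR-218-5p is made from the hairpin in Slit2 (chr5:48223966-48223986, plus strand) and from that in Slit3 (chr11:35616840-35616860, plus strand), with the same sequence, here with its seed (bases 2 to 8) in capitals.
miR-218-5p: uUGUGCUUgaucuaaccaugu
Robo1 and Robo2 transcripts are known targets of this microRNA. Its row for the Slit2 hairpin, Mir218-1, held 1 to 12 reads in GFP+ libraries and 0 to 9 reads in GFP- libraries, with at least a read in 19 of 22. The row fell below the filter on low values, so it was not tested. The Slit3 hairpin was not analysed here.

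Values below are normalized counts, that is, reads per gene divided by the authors' size factor of the library. Libraries held 4244987 to 10849169 reads counted to genes, and a read was worth 0.547 to 1.31 units. Pdyn itself, the check of the sort, was at 511 ± 75.2 in GFP+ libraries and 7.42 ± 5.11 in GFP- libraries (SD, n = 11 each). All 14 pan-neuronal markers were higher in GFP+ nuclei, as were 8 of 10 inhibitory neuron markers, with 1 lower. Of 10 excitatory neuron markers 2 were higher and 6 lower. All 12 astrocyte and all 14 oligodendrocyte markers were lower (limma, adjusted p under 0.05). Over all 18614 genes tested, 22.6% were higher and 25.5% lower. Oligodendrocyte markers were not at 0 in GFP+ libraries, with summed values of 2333 to 11741 there and 30564 to 127020 in GFP- libraries. The GFP- libraries were uneven: their pan-neuronal score, the mean log2(value + 1) of the 14 markers, was 8.11 to 8.38 in those coded ES8 (P80), ES12 and ES16 (P21), and 8.76 to 9.26 in the other 8, against 9.58 to 9.92 in GFP+ libraries. The library ES16 also had a summed endothelial and mural signal of 8161 and a meningeal fibroblast signal of 8742, while no other GFP- library exceeded 1424 and 3088 on these sums. Its summed ependymal signal was 633, and no other GFP- library exceeded 66.9.

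Robo3 had the widest gap between the populations. In GFP+ nuclei it had 485, 478, 478 and 691 normalized counts at P7, 465, 476 and 607 at P21, and 566, 485, 397 and 510 at P80. In GFP- nuclei it had 29.6, 38.7, 14.8 and 38.7 at P7, 18.8, 25.3 and 20.8 at P21, and 27.4, 41.4, 18.05 and 8.14 at P80. Each GFP+ library was above each GFP- library, by a wide gap at every age, and the GFP- values rested on 9 to 48 reads a library. The means were 513 ± 80.4 in GFP+ and 25.6 ± 10.8 in GFP- nuclei (SD, n = 11 each), a ratio of 20.02, so that the GFP- mean was 4.995% of the GFP+ mean. For Pdyn that share was 1.45%. In samples of sorted nuclei, fewer nuclei of a type and less RNA per nucleus cannot be told apart.

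**Figure D1:**
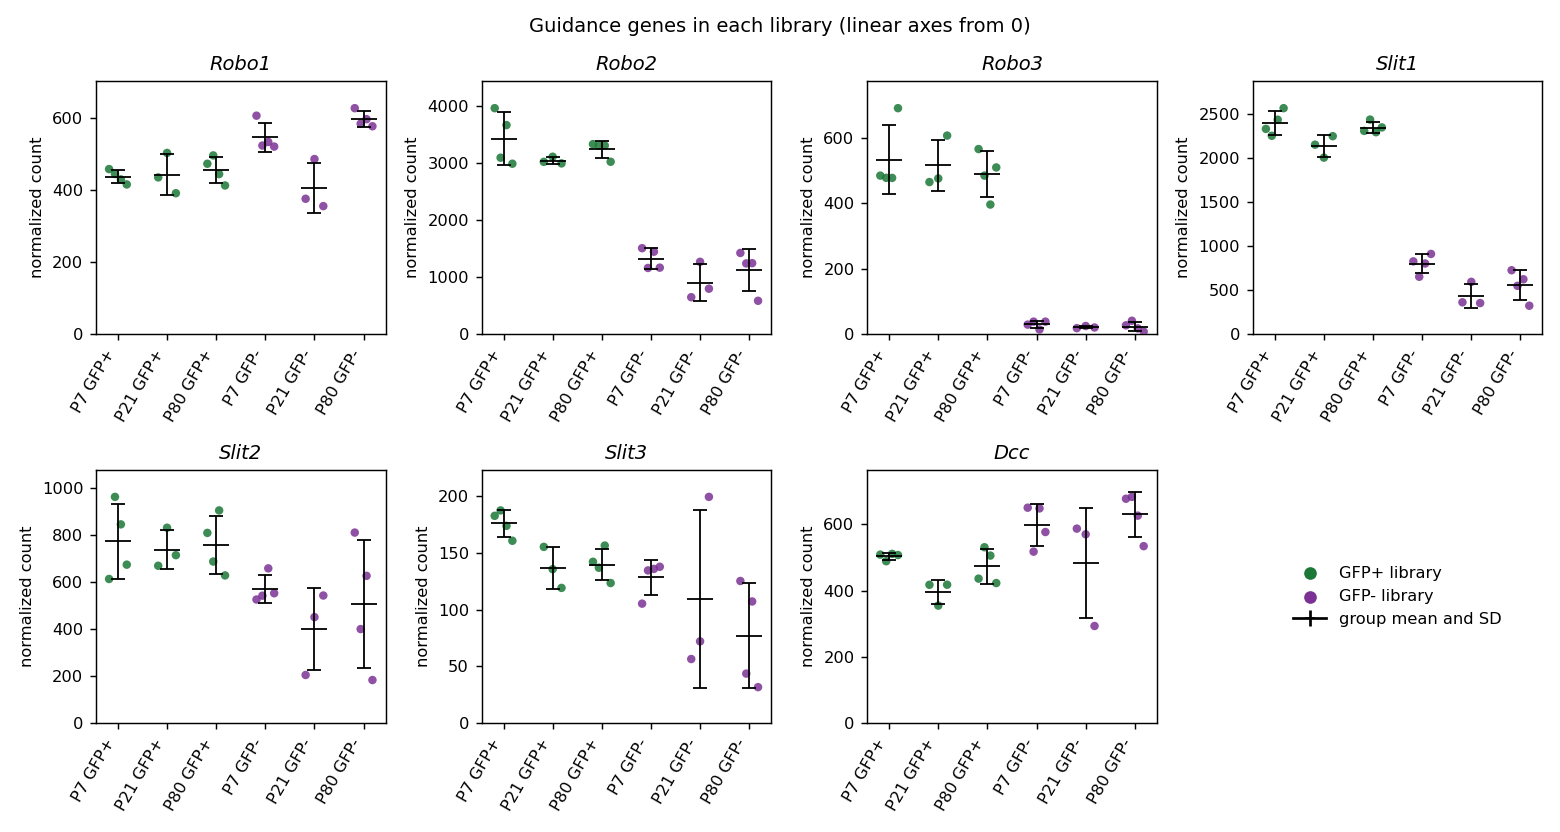
Normalized counts of the 7 genes (linear axes from 0) in each library, with points for libraries and bars for the group mean and SD; GFP+ groups stand left of GFP- groups, and ages run P7, P21, P80. Robo3, Robo2 and Slit1 have no overlap between GFP+ and GFP- libraries, and the other 4 genes overlap at 1 or more ages.

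Robo2, a Slit receptor, was also higher in GFP+ nuclei in each library. Its values were 3968, 3099, 3671 and 2994 at P7, 3026, 3116 and 2999 at P21, and 3337, 3310, 3313 and 3028 at P80 in GFP+ nuclei. In GFP- nuclei they were 1511, 1164, 1449 and 1169 at P7, 651, 1272 and 800 at P21, and 1427, 1244, 1248 and 588 at P80. The lowest GFP- values were those of ES8, ES12 and ES16, the libraries of low pan-neuronal score. Means were 3260 ± 312 in GFP+ and 1139 ± 319 in GFP- nuclei (SD, n = 11 each), a ratio of 2.86.

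Robo1, the other classical Slit receptor, did not follow. It had 459, 445, 430 and 416 at P7, 436, 504 and 392 at P21, and 474, 497, 445 and 413 at P80 in GFP+ nuclei. In GFP- nuclei it had 607, 524, 534 and 521 at P7, 376, 487 and 356 at P21, and 628, 585, 598 and 578 at P80. GFP+ libraries were below all GFP- libraries at P7 and at P80, and the populations overlapped at P21. The means were 446 ± 34.8 in GFP+ and 527 ± 90.1 in GFP- nuclei (SD, n = 11 each).

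Dcc, the netrin receptor that signals attraction, resembled Robo1 in direction. Its GFP+ values were 509, 489, 511 and 508 at P7, 418, 355 and 418 at P21, and 436, 531, 506 and 423 at P80. Its GFP- values were 651, 518, 649 and 577 at P7, 588, 570 and 293 at P21, and 678, 683, 627 and 534 at P80. GFP+ libraries were below all GFP- libraries at P7 and P80, narrowly in each case, and at P21 the lowest value of all was that of the GFP- library ES16. Means were 464 ± 56.3 in GFP+ and 579 ± 110 in GFP- nuclei (SD, n = 11 each).

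Of the ligands, Slit1 had the widest gap between populations. In GFP+ nuclei Slit1 had 2328, 2250, 2432 and 2562 at P7, 2149, 2002 and 2245 at P21, and 2305, 2433, 2290 and 2345 at P80. In GFP- nuclei it had 826, 652, 802 and 911 at P7, 363, 594 and 354 at P21, and 726, 549, 624 and 324 at P80. No GFP- library reached the lowest GFP+ library. Means were 2304 ± 150 in GFP+ and 611 ± 201 in GFP- nuclei (SD, n = 11 each), a ratio of 3.77, and the GFP+ libraries varied little, with a coefficient of variation of 6.50% in GFP+ and 32.8% in GFP- nuclei.

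Slit2, a ligand made by the floor plate and by motor neurons in the embryo, ranged from 612 to 961 over GFP+ libraries and from 183 to 810 over GFP- libraries, with medians of 714 in GFP+ and 541 in GFP- libraries. The ranges overlapped at P7 and P80, and at P21 the GFP+ libraries, at 669 to 830, were above the GFP- libraries, at 204 to 542. Slit3, a ligand also made by mesenchymal and vascular cells, ranged from 119 to 188 over GFP+ and from 31.7 to 200 over GFP- libraries. Its highest value of all was that of the GFP- library ES16, in which vascular and meningeal markers were also highest, and the part of those cells in the Slit3 value was not tested. At P7 all GFP+ Slit3 values, at 161 to 188, lay above the GFP- values, at 105 to 138.

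Of the 7 genes, 3 (Robo2, Robo3 and Slit1) thus had all 11 GFP+ libraries above all 11 GFP- libraries, as did 3.6% of all genes tested, and none had them all below, as did 4.81% of genes. In the limma fit the GFP+ minus GFP- difference on the log2(value + 1) scale, averaged over ages, was 4.39 ± 0.21 for Robo3, 2.02 ± 0.11 for Slit1 and 1.59 ± 0.13 for Robo2 (SE). It was 0.73 ± 0.20 for Slit2 and 0.69 ± 0.21 for Slit3, and it was below 0 for the remaining receptors, at -0.19 ± 0.06 for Robo1 and -0.29 ± 0.10 for Dcc. Over all genes, 22.6% were called higher and 25.5% lower at this contrast. The median over the 7 genes was 0.73, and over all 18614 genes tested it was -0.02. Since the genes were chosen with this contrast known, nothing is read from these counts. The share of all genes whose libraries separate at a single age was not taken. The separations of Robo1, Dcc, Slit2 and Slit3 at single ages are therefore a description only.

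GFP+ libraries hold more neuronal signal than GFP- libraries, so the differences were also expressed relative to each library's pan-neuronal score, a scale on which the median of all genes falls by 0.88. On it, Robo3 (3.51 ± 0.19), Slit1 (1.13 ± 0.09) and Robo2 (0.71 ± 0.10) were still higher in GFP+ nuclei (log2 difference ± SE). Slit2 and Slit3 turned to -0.15 ± 0.14 and -0.20 ± 0.19, each about its own SE below 0. Robo1 and Dcc moved to -1.08 ± 0.12 and -1.18 ± 0.14. On this scale 14712 of 18614 genes were called lower in GFP+ nuclei and 473 higher (limma), so a value below 0 is common. The plot of the population difference sets both scales side by side.

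**Figure D2:**
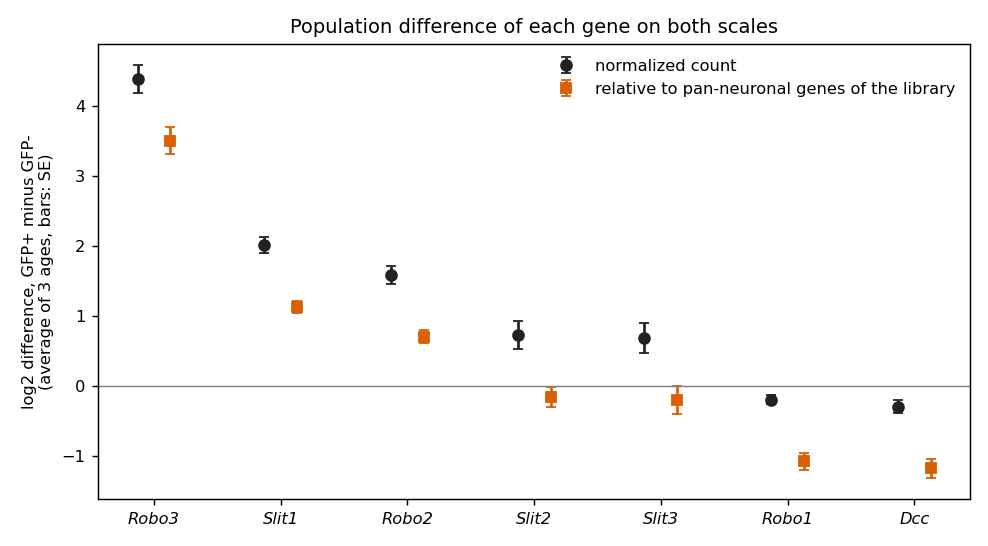
Log2 difference of GFP+ minus GFP- nuclei, averaged over the 3 ages, for each gene (points, with SE bars), on normalized counts (circles) and relative to the library's pan-neuronal genes (squares). Robo3, Slit1 and Robo2 stay above 0 on both scales, Slit2 and Slit3 change sign, and Robo1 and Dcc lie near -1 on the relative scale.

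Within the GFP- libraries the genes also differed in how they followed the neuronal markers. The SD of the log2 value over the 11 GFP- libraries was 0.47 for Robo2 and 0.52 for Slit1, and it was 0.18 for each after subtraction of the pan-neuronal score. For Robo1 and Dcc the subtraction left a larger SD, 0.36 with it against 0.27 without it for Robo1, and 0.42 with it against 0.34 without it for Dcc. In ES8, ES12 and ES16, Robo2 was at 588 to 800, below the 1164 to 1511 of the other 8 GFP- libraries, and Slit1 was at 324 to 363, below their 549 to 911. Dcc in these 3 libraries, at 293 to 588, overlapped the 518 to 683 of the others, as the plot against the pan-neuronal score shows.

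**Figure D3:**
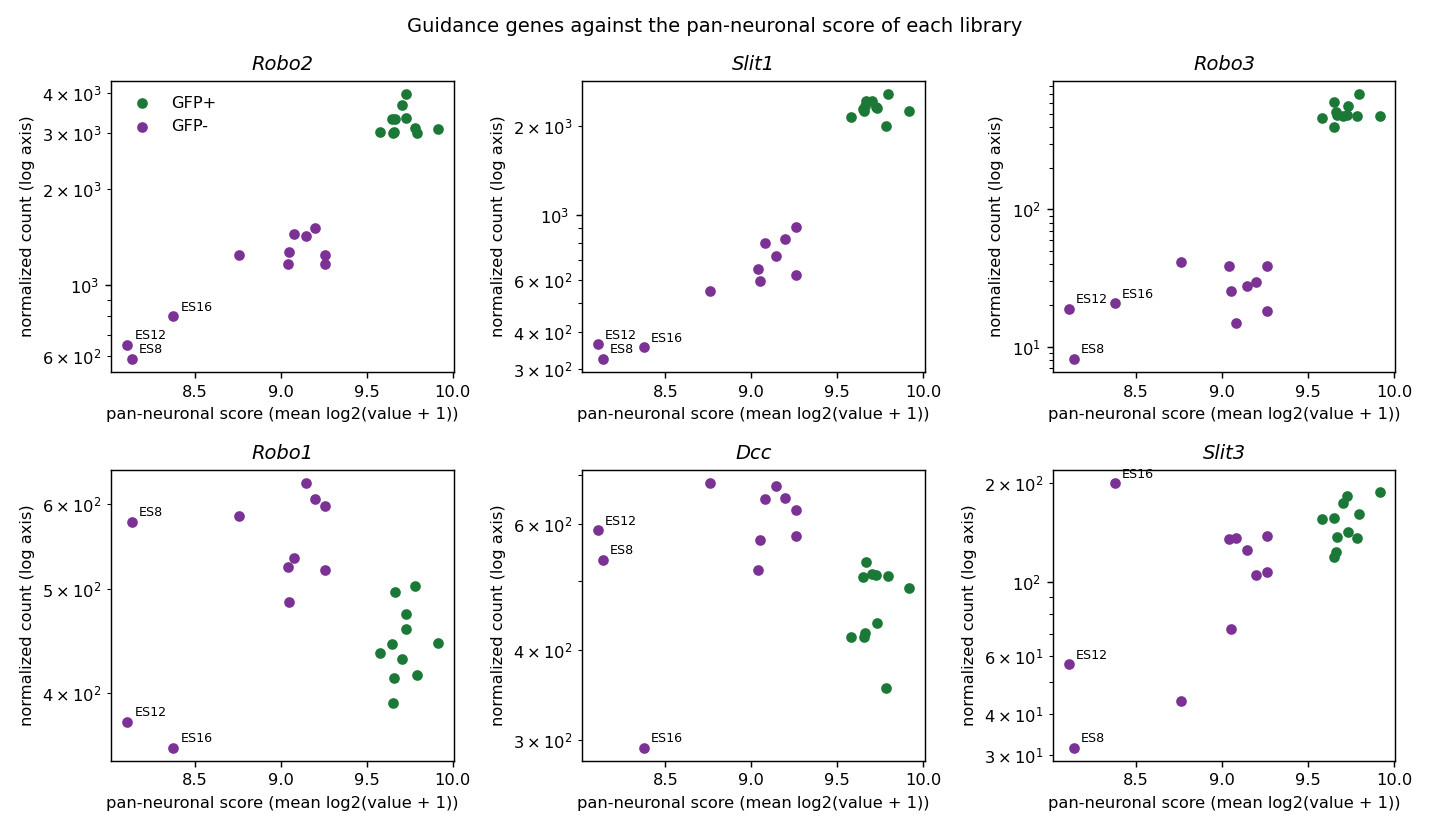
Normalized counts (log axes) of 6 of the genes against the pan-neuronal score of each library (mean log2(value + 1) of 14 markers), GFP+ and GFP- libraries in different colours. Robo2 and Slit1 fall with the score in the GFP- libraries ES8, ES12 and ES16, while Slit3 is highest and Dcc lowest in ES16.

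To compare genes with each other, counts were divided by the length of their exons (GENCODE vM21, overlapping exons merged). On this scale GFP+ nuclei had 389 ± 25.3 units per kb of Slit1, 192 ± 18.4 of Robo2 and 74.9 ± 11.7 of Robo3 (SD, n = 11), and these levels were apart from each other in all 11 libraries. Dcc followed at 35.2 ± 4.27, Slit2 at 29.8 ± 4.63, Robo1 at 27.0 ± 2.11 and Slit3 at 25.1 ± 3.79 units per kb, and in these 4 each gene's range overlapped that of the next. In GFP- nuclei the order was Slit1 at 103 ± 33.9, Robo2 at 67.0 ± 18.8, Dcc at 44.0 ± 8.33 and Robo1 at 31.9 ± 5.46 units per kb, then Slit2 at 19.6 ± 7.29, Slit3 at 17.2 ± 8.22 and Robo3 at 3.74 ± 1.57, with each range overlapping the next. Whether exons or whole genes were counted is not stated, and nuclear RNA holds introns: per kb of whole gene, Robo3, a short gene of 17.6 kb, came first in GFP+ nuclei at 29.2 ± 4.57 units, and Slit1 next at 16.1 ± 1.04. On that scale Robo3 was the fourth of the 7 genes in GFP- nuclei, at 1.46 ± 0.61 units, and not the last. No exon of another annotated gene overlaps an exon of any of the 7 genes in that annotation.

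As shares of the Robo signal per exon kb, Robo3 made up 25.5 ± 3.83% in GFP+ and 3.66 ± 1.36% in GFP- nuclei (SD, n = 11 each). Robo1 made up 9.23 ± 0.85% in GFP+ and 31.9 ± 6.29% in GFP- nuclei. Robo2 made up 65.3 ± 3.62% in GFP+ and 64.5 ± 5.96% in GFP- nuclei on this scale. Of the Slit signal, Slit1 held 87.6 ± 1.56% in GFP+ and 73.8 ± 8.05% in GFP- nuclei, with Slit2 at 6.73 ± 1.13% in GFP+ and 13.8 ± 2.95% in GFP-, and Slit3 at 5.65 ± 0.78% in GFP+ and 12.3 ± 5.95% in GFP- nuclei. The shares depend on the length used. Per kb of whole gene, Robo3 made up 80.6 ± 2.98% of the Robo signal in GFP+ and 32.6 ± 8.81% in GFP- nuclei, Robo2 17.6 ± 2.77% in GFP+ and 50.1 ± 6.74% in GFP-, and Robo1 1.71 ± 0.26% in GFP+ and 17.3 ± 5.49% in GFP- nuclei (SD, n = 11 each). The direction for Robo3 and Robo1 was the same on both scales, while Robo2 had near equal shares per exon kb only.

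**Figure D4:**
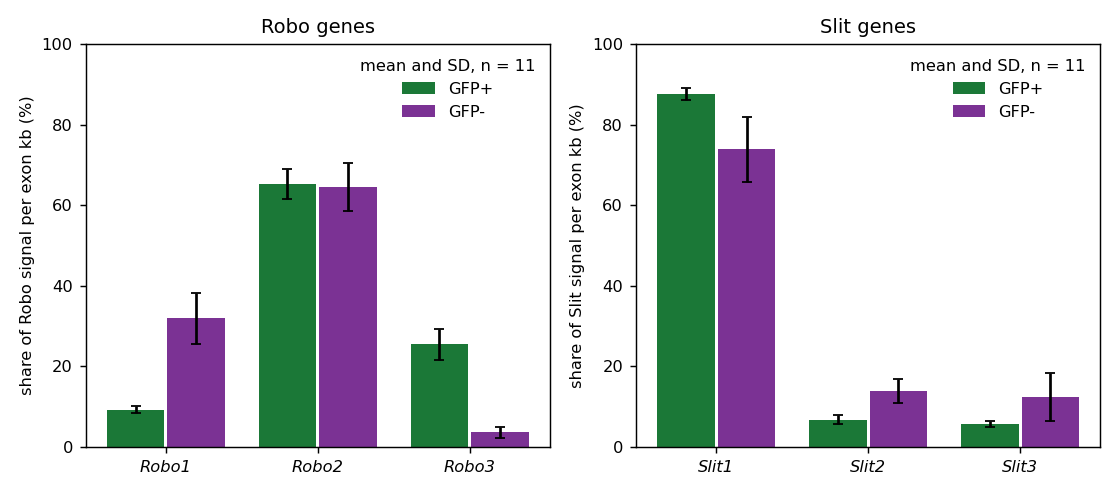
Share of the summed Robo signal (left) and Slit signal (right) per exon kb held by each gene, as mean and SD over 11 GFP+ and 11 GFP- libraries, on linear axes from 0 to 100%. Robo3 holds 25.5% of the Robo signal in GFP+ nuclei and 3.66% in GFP- nuclei, and Robo1 holds 9.23% in GFP+ and 31.9% in GFP- nuclei.

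Age was not used in choosing the 7 genes, but the genes, gene lists and tests were set with earlier results of these data known. The authors deposited an across-age table for the GFP+ nuclei. None of the 7 genes passed between P7 and P21, P21 and P80, or P7 and P80 in GFP+ nuclei (limma with Benjamini-Hochberg adjustment over 18614 genes). Over all genes, 2.33%, 0.242% and 9.39% passed in those comparisons. From P7 to P80 the log2 change was -0.12 ± 0.34 for Robo3 (95% interval -0.82 to 0.58, adjusted p = 0.888), -0.03 ± 0.18 for Slit1 (-0.41 to 0.35, 0.953) and -0.07 ± 0.21 for Robo2 (-0.51 to 0.37, 0.890). The values were 0.06 ± 0.11 for Robo1, -0.09 ± 0.16 for Dcc, -0.02 ± 0.33 for Slit2 and -0.33 ± 0.35 for Slit3 (SE), with adjusted p of 0.634 to 0.980. For Robo1 the interval runs from -0.16 to 0.28 and for Robo3 from -0.82 to 0.58. These intervals rest on a spread shared by all 22 libraries, so they do not measure the spread within GFP+ nuclei. In a fit to GFP+ libraries alone the SE from P7 to P80 was smaller for all 7 genes. It was 0.134 for Robo3, 0.092 for Robo1, 0.075 for Robo2 and 0.063 for Slit1. Slit1 and Robo2 thus had a smaller SE than Robo1 there, and a larger one in the fit to all 22 libraries. The median change of the 7 genes was -0.07, and that of all genes was -0.03.

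Dcc came nearest to a change in GFP+ nuclei. All 3 P21 values, at 355 to 418, lay below the P7 values, at 489 to 511, and P80 values, at 423 to 531, lay above P21. The P7 to P21 change was -0.35 ± 0.17 (SE, adjusted p = 0.385) in the fit to all 22 libraries. In a fit to the 11 GFP+ libraries alone, whose spread is smaller than that of the GFP- libraries, it was called, at -0.35 ± 0.10 (adjusted p = 0.0228), where 10.9% of all genes were called. Slit3 in that fit was at -0.37 ± 0.13 from P7 to P21 (SE, adjusted p = 0.0778) and was not called. The Dcc change was also called without ES8, ES12 and ES16 (adjusted p = 0.0275). These are GFP- libraries, so leaving them out changes only the shared spread, and this call is not separate support. In the authors' deposited table of GFP+ nuclei across ages, the adjusted p of Dcc was 0.0634, that of Slit3 0.141 and that of Slit1 0.186, and those of the other 4 genes were 0.494 to 0.962. Slit1 and Slit3 likewise had all P21 values below all P7 values in GFP+ nuclei, as did 11% of genes. Slit1 and Dcc had all P80 values above all P21 values, as did 5.16% of genes, and Slit3 had all P80 values below all P7 values, as did 14.2%.

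In GFP- nuclei 2 of the 7 genes were lower at P21 than at P7, where 5.07% of all genes were called lower. Slit1 was at 354 to 594 at P21, against 652 to 911 at P7, a change of -0.90 ± 0.20 (SE, adjusted p = 0.00784). Robo1 was at 356 to 487 at P21, against 521 to 607 at P7, a change of -0.44 ± 0.11 (adjusted p = 0.0197). From P21 to P80, Robo1 rose by 0.57 ± 0.11, with 578 to 628 at P80 against 356 to 487 at P21 (adjusted p = 0.0136), the 1 call of 7 where 0.784% of genes were called higher. From P7 to P80, Slit1 was lower by a change of -0.57 ± 0.18 (adjusted p = 0.0370), where 8.77% of genes were called lower, and Slit3 had a change of -0.95 ± 0.35 (adjusted p = 0.0718). The median over the 7 genes from P7 to P21 was -0.45, and over all genes 0.03. Robo1 and Slit1 had all GFP- values at P21 below all at P7, as did 8.54% of genes, and Robo1 had all at P80 above all at P21, as did 3.41%.

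The neuronal content of the GFP- libraries also differed between ages. Of the 14 pan-neuronal markers, 6 were lower at P21 than at P7 in GFP- nuclei, with a median change of -0.62, and the P21 group holds both ES12 and ES16. Relative to the pan-neuronal score, none of the 4 calls remained: from P7 to P21 Slit1 was at -0.27 ± 0.16 (adjusted p = 0.176) and Robo1 at 0.20 ± 0.21 (adjusted p = 0.464). Of the 7 genes 0 were called in a fit to GFP- libraries alone, which called 0.698% of genes from P7 to P21, 0.0269% from P21 to P80 and 7.36% from P7 to P80. The changes there are the same by construction, with larger SE: 0.27 for Slit1 and 0.14 for Robo1 from P7 to P21. Without ES8, ES12 and ES16 none was called from P7 to P21 (Slit1 -0.41, Robo1 -0.16) or from P21 to P80 (Robo1 0.31). Slit1 was still called from P7 to P80 without them, at -0.33. Without ES8 alone, a P80 library, it was also at -0.33 but was not called (adjusted p = 0.13). ES12 and ES16 are P21 libraries, so leaving them out changes only the shared spread in this comparison. With 3 libraries at P21 of which 2 stand apart, age and the makeup of the sorted sample cannot be told apart in the comparisons with P21. Nor can they be told apart for Slit1 from P7 to P80, where the size of the change depends on ES8.

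**Figure D5:**
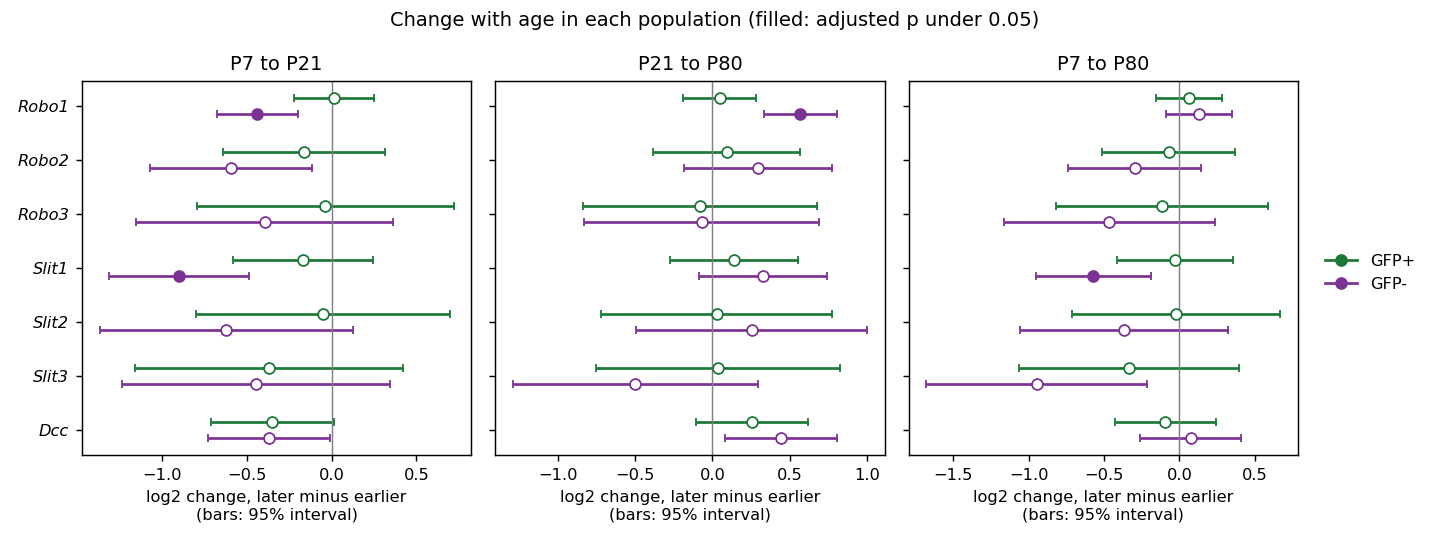
Log2 change of each gene from the earlier to the later age (points, with 95% intervals) in GFP+ and GFP- nuclei, for P7 to P21, P21 to P80 and P7 to P80; filled points have an adjusted p under 0.05. All intervals of GFP+ nuclei include 0, and the filled points are Robo1 and Slit1 in GFP- nuclei.

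No gene was called for a change of its population difference with age. The age by population interaction called 0 of the 7 genes (limma F test, 0.951% of all genes), with the lowest adjusted p, 0.215, for Robo1. The difference of GFP+ minus GFP- at P80 minus that at P7 called 0 of 7 (2.07% of all genes), and was 0.54 ± 0.26 for Slit1 (SE, adjusted p = 0.431) and 0.35 ± 0.48 for Robo3 (adjusted p = 0.895). On the log2 scale the population difference of Robo3 itself came to 4.16 for P7, 4.51 for P21 and 4.51 for P80. Without the GFP- library ES14 the interaction of Robo1 was called (adjusted p = 0.0414). Robo1 was the gene whose population difference had different signs by age, -0.32 at P7, 0.13 at P21 and -0.39 at P80, and the P21 value was -0.14 without ES12, ES16 and ES8. These differences are a description.

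The partners of these receptors were followed through a list of 24 ligands and co-receptors, 23 of them tested. Between populations, 7 were higher and 7 lower in GFP+ nuclei, with a median of 0.06, where 22.6% of all genes were higher and 25.5% lower. The largest positive differences were those of Dscaml1, a homophilic adhesion receptor (0.84 ± 0.12), Gpc1, a heparan sulfate proteoglycan that binds Slits (0.75 ± 0.09), and Ntn3, a netrin (0.69 ± 0.13). These 3 genes were below 0 relative to the pan-neuronal score, at -0.04, -0.13 and -0.20. On that scale the median of all genes falls by 0.88, and 14712 of 18614 genes were called lower. The largest negative differences were those of Unc5b, a repulsive netrin receptor (-2.43 ± 0.21), Robo4, the endothelial Robo (-2.34 ± 0.40), and Ntn1, which encodes netrin-1, the ligand of Dcc (-1.26 ± 0.24). Nell2, named here because its protein binds Robo3, was 0.67 ± 0.15 higher in GFP+ nuclei, and it too was below 0 relative to the pan-neuronal score, at -0.21 ± 0.13 (SE). On normalized counts all 7 genes named had an adjusted p at or below 0.000972 (limma).

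Of the listed genes called with age in GFP+ nuclei, Gpc1 had the largest change. In GFP+ nuclei it was at 1066, 1189, 1087 and 1229 at P7, 619, 588 and 685 at P21, and 535, 554, 508 and 582 at P80. In GFP- nuclei it was at 764, 615, 776 and 841 at P7, 267, 397 and 362 at P21, and 358, 336, 416 and 225 at P80. The later ages lay below P7 in each population. In GFP+ nuclei the log2 change was -0.86 ± 0.16 from P7 to P21 (adjusted p = 0.00562) and -1.07 ± 0.15 from P7 to P80 (adjusted p = 7.27e-05), and in GFP- nuclei it was -1.19 ± 0.15 from P7 to P80 (adjusted p = 1.21e-05). These 3 calls held under all 33 alternatives run. From P7 to P80, 3 of 23 genes in the list were lower and 0 higher in GFP+ nuclei, where 9.39% of all genes were called, the others being Unc5d, a netrin receptor (-0.70 ± 0.22, adjusted p = 0.0459), and Sdc3, a syndecan (-0.49 ± 0.14, adjusted p = 0.0241). Unc5d was lost under 18 of 33 alternatives and Sdc3 under 6, and both on the pan-neuronal scale, where the changes were -0.59 for Unc5d (adjusted p = 0.0795) and -0.38 for Sdc3 (adjusted p = 0.547). The count of 3 was 1 under centring and without ES7, ES19 or ES23, 5 without ES16, 8 without ES8, ES12 and ES16, and 9 in GFP+ libraries alone. In GFP- nuclei 7 were lower (8.77% of all genes) and 1 higher, Unc5b (1.51 ± 0.35, adjusted p = 0.00465), and the 8 calls were 2 under centring, 3 in GFP- libraries alone, and 5 without ES22 or ES24.

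Among 28 genes of signalling and trafficking downstream of Robo and Dcc, 8 were higher and 11 lower in GFP+ than in GFP- nuclei (22.6% and 25.5% of all genes), with a median of -0.12. Srgap3, a Slit-Robo GTPase-activating protein, was the highest at 0.78 ± 0.09, then Prrg4 (0.63 ± 0.22), whose fly relative removes Robo from the surface, and Ndfip1 (0.38 ± 0.10), an adaptor of ubiquitin ligases. All 3 were below 0 relative to the pan-neuronal score, at -0.10, -0.25 and -0.50. There 14712 of 18614 genes were called lower and the median of all genes falls by 0.88, so the sign is not particular to them. The lowest were Dock1 (-3.18 ± 0.17), a Rac activator, the kinase Abl1 (-1.18 ± 0.12) and Srgap1 (-1.005 ± 0.12), another Slit-Robo GTPase-activating protein (SE, limma, all adjusted p at or below 0.0217).

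Some of these effectors changed with age where the receptors were not called. Srgap1 in GFP+ nuclei had P7 values of 726, 673, 717 and 668, P21 values of 291, 312 and 322, and P80 values of 269, 316, 250 and 196, and no later value reached P7. Its change from P7 to P80 was -1.45 ± 0.20 in GFP+ (adjusted p = 6.5e-05) and -0.28 ± 0.20 in GFP- nuclei (adjusted p = 0.394), and the difference of the changes was -1.17 ± 0.29 (SE, adjusted p = 0.0331). Dock1 in GFP+ nuclei had P7 values of 179, 167, 189 and 166, P21 values of 101, 134 and 89.2, and P80 values of 56.1, 40.7, 43.5 and 79.2, a change of -1.70 ± 0.27 (adjusted p = 0.000272). In GFP- nuclei Dock1 was at 727 to 2170 at P80, against 747 to 842 at P7, and the difference of the changes was -2.16 ± 0.38 (adjusted p = 0.00533). Of the list, 3 of 28 genes were lower and 0 higher from P7 to P80 in GFP+ nuclei, near the 9.39% of all genes called, with a median of -0.04. The count was 5 with DESeq2, 7 without ES8, ES12 and ES16, and 10 in GFP+ libraries alone. The third, Fyn, a kinase downstream of Dcc, was lower at P80 than at P7 in each population (adjusted p of 0.000561 in GFP+ and 2.77e-07 in GFP-), at 402 to 474 against 663 to 719 in GFP+ and at 409 to 501 against 996 to 1331 in GFP- nuclei.

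Markers of several other cell types were also lower at P80 than at P7 in GFP+ nuclei, where 9.39% of all genes were called in either direction. Of 14 oligodendrocyte markers 10 were lower at P80 than at P7, with a summed value of 2333 to 3217 at P80 and 8618 to 11348 at P7. Of 9 oligodendrocyte precursor markers tested 8 were lower, and of 12 astrocyte markers 10 were lower. Of 10 endothelial and mural markers 4 were lower, as were 4 of 8 meningeal fibroblast markers, and 0 of 12 microglia markers were called. The part of these cell types in the changes of Srgap1, Dock1 and Fyn was not tested. The 14 pan-neuronal markers had 1 gene higher and 2 lower in the same comparison. The Srgap1 and Dock1 changes in GFP+ nuclei from P7 to P80 held under each alternative run. On the pan-neuronal scale that of Fyn was -0.56, against -0.67 on normalized counts, and was not called (adjusted p = 0.287). The difference of the changes was lost for Srgap1 under 15 of 32 alternatives, with values of -1.38 to -0.97, and for Dock1 on the pan-neuronal scale, where it was -2.37 (adjusted p = 0.107).

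The genes whose pattern over the 22 libraries was most like that of each member were ranked by Pearson's r among 8684 candidates of at least median expression, as a description, since the libraries fall into the GFP+ and GFP- populations and share depth and cell makeup. Closest to Robo3 were Sstr2 (r = 0.981), a somatostatin receptor, Slc24a4 (0.978), a sodium and calcium exchanger, and Pnoc (0.975), which encodes prepronociceptin. Closest to Slit1 were Kcns2, Prkcb and Gria1 (0.987 to 0.988), and closest to Robo2 were Stac, Prkcb and Nrxn3 (0.989 to 0.990). For Slit2 the first was Mest (0.937), for Slit3 Prkar2b (0.910), for Dcc Dennd1a (0.869) and for Robo1 Slc8a1 (0.812). Within the 11 GFP+ libraries other genes led: Tcf3 for Robo3 (0.922), Npas2 for Slit1 (0.909), Inpp4b for Robo2 (0.975), Pbx3 for Slit2 (0.940), Zc3h18 for Dcc (0.842) and Elavl4 for Robo1 (0.884).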

How the data were processed

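Nuclear RNA of 22 sorted samples was sequenced by the authors. NuGEN SoLo libraries were amplified for 15 cycles and run on a HiSeq instrument, per the labels' protocols. Tools listed in the submitters' processing notes are STAR, HTSeq, DESeq2, cutadapt and Trim Galore. Not given in the sources used here were their versions and settings, the genome build, the annotation and the use of strand in counting. The deposited values are a normalized signal, per the file headers: within a tolerance of 0.01 reads, 100% of values were whole multiples of a fixed step per library, so they are counts divided by a size factor, and whole reads were recovered. The log2 fold changes and the p-values in the deposited tables were made by the authors and are used only where named.

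Ages were taken from the authors' sheet that holds a column, and GFP+ from their table of GFP+ nuclei across ages. Library columns could not be tied to animals, so no paired fit was made. Per the labels the samples of a group come from separate animals.

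The main test was limma 3.58.1 (trend and robust options, R 4.3.3) on log2(value + 1), with 6 group means and all 22 libraries, two-sided, after a filter of at least 10 in at least 3 libraries that 18614 of 21363 genes and all 7 members passed. P-values were adjusted over all genes tested (Benjamini-Hochberg), and 0.05 was the threshold. A fold change on this scale understates the change of low genes such as Robo3 in GFP- nuclei. Intervals are at 95%. The fit was tested on simulated data with the same spread setting in every library. That test does not cover the wider spread of the GFP- libraries. Alternatives were pseudocounts of 0.5 and 5, no filter, a filter at 50, edgeR 4.0.16 (quasi-likelihood test) and DESeq2 1.42.0 on recovered reads, TMM scaling, centring on pan-neuronal markers, fits within a population, limma without both options, and leaving out each library. A fit without ES8, ES12 and ES16 was added after seeing the data. The members, pathway lists and tests were chosen with earlier results of these data known. Every member is named. Of each pathway list, up to 3 genes in each direction with the largest change among those that passed are named. This holds for the population difference averaged over ages and for P7 to P80 in GFP+ nuclei. Genes of the lists that passed in other comparisons, such as those within GFP- nuclei, are named only in part. Nell2 was added after its values were seen. Figures were drawn with matplotlib 3.10.9 in Python 3.11.15. Exon lengths are from GENCODE vM21, and sequences from RefSeq on GRCm38.p6, which may not be the authors' build. The gene closest to Slit3 within GFP+ libraries is not reported here.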

Additional observations from a re-analysis of the deposited data

Results flagged for a closer look

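In 5 of 28 sets of 4 values, each a gene in a group of 4 libraries, 1 library lay far from the other 3. The rule was Dixon's ratio at its 95% critical value, which chance passes in about 1 in 20 independent sets. Genes of a group were measured in the same libraries, so the sets are not independent and the count is a description. Robo3 at P7 in GFP+ nuclei was 691 in the library coded ES23 and 478 to 485 in the others. Robo2 at P80 in GFP+ nuclei was 3028 in ES7 and 3310 to 3337 in the others. Dcc at P7 in GFP+ nuclei was 489 in ES19 and 508 to 511 in the others, a narrow group. At P7 in GFP- nuclei the library ES18 stood apart for Robo1, at 607 with the others at 521 to 534, and for Slit3, at 105 with the others at 135 to 138.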

How the results depend on the processing

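No paired analysis was possible because the columns carry library codes that no label ties to an animal or a replicate number. Of 2730 comparisons of a member's value with its alternatives, 21 lost a call and 11 gained one; of the 2506 that have a sign, 66 turned it, 23 of these under pan-neuronal centring. In GFP+ nuclei the members called from P7 to P21 were 0, and 1 (Dcc) in a fit to GFP+ libraries alone and without ES8, ES12 and ES16. In GFP- nuclei the members called from P7 to P21 were 2, and 0 under pan-neuronal centring, in a fit to GFP- libraries alone and without those 3 libraries, with a range of 1 to 3 when single libraries were left out. From P21 to P80 it was 1, and 0 under the same 3 settings (0 to 3 with single libraries left out). From P7 to P80 it was 1, and 0 with edgeR, under centring, within GFP- libraries and in limma without its options (0 to 2). The interaction called 0 to 1 members with single libraries left out. Under centring 3 members, not 5, were higher in GFP+ nuclei.

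Among called changes and population differences, signs turned under centring for Robo1 from P7 to P21 in GFP- nuclei (0.20), for the population difference of Robo1 at P21 (-1.03, and -0.14 without the 3 libraries), of Slit2 on average (-0.15) and at P7 (-0.22), P21 (-0.17) and P80 (-0.081), and of Slit3 on average (-0.20), at P7 (-0.18) and at P21 (-0.62). Among changes that were not called, centring turned 5 more of the 7 members from P7 to P21 in GFP- nuclei (such as Robo3, to 0.24), 2 from P21 to P80 and 1 from P7 to P80, and in GFP+ nuclei 2 from P7 to P21 and 4 from P7 to P80. Signs also turned for the averaged difference of Dscaml1 (-0.043), Gpc1 (-0.13), Ntn3 (-0.20), Srgap3 (-0.10), Prrg4 (-0.25) and Ndfip1 (-0.50), and for Fyn from P7 to P21 in GFP- nuclei (0.070). Centring subtracts the neuronal difference by construction, and the median of all genes moved by -0.88 for the averaged difference and by 0.63 from P7 to P21 in GFP- nuclei. Counts over all genes depended on the setting: 433 genes from P7 to P21 in GFP+ nuclei (106 to 2026 over the alternatives), 45 from P21 to P80 (2 to 218) and 1747 from P7 to P80 (719 to 4265), and in GFP- nuclei 1879 (130 to 5716), 363 (5 to 2637) and 3041 (1370 to 4621). The difference between populations at P80 minus P7 called 386 (5 to 760) and the interaction 177 (2 to 628). Leaving out ES12, ES16 or ES18 ended the P7 to P21 call of Robo1 in GFP- nuclei, ES16 its P21 to P80 call, and ES4, ES8, ES18, ES22 or ES24 the P7 to P80 call of Slit1 (-0.59 to -0.33). Depth limits Robo3 in GFP- nuclei, at 9 to 48 reads.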
